A study of Arabidopsis thaliana with 8 samples.

Results

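AT3G44450 encodes a BIC-type inhibitor of cryptochromes. By group means, its mRNA had the lowest heat effect of all 22810 probe sets of the array in both total and polysome-bound mRNA. On replicate 1 alone it was not the lowest in either population. The gene was taken as the probe set annotated to AT3G44450 and to no other gene, 1 gene of the 13355 that 13513 such probe sets represented. It was chosen by the 2 heat effects between group means, so they are given as a description, without a test. The other measurements concern its polysome loading at each temperature, the other genes of light signalling, and the genes with similar profiles or a nearby position.

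Cryptochromes are the blue-light receptors of plants, and in blue light they associate into active dimers and larger assemblies. BIC proteins bind cryptochromes and block this association, and light in turn raises the transcription of BIC genes, so that the inhibitors form a negative feedback on the receptors. In seedlings, cryptochrome signalling restrains elongation of the hypocotyl, promotes greening and sets the circadian clock.

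The study asked how heat stress changes the association of individual mRNAs with polysomes. Wild-type Columbia-0 seedlings, grown on plates for 7 days with 16 h of light per day in the study's chamber, were either incubated at 38°C for 45 min or taken straight from the chamber at 22°C. Polysome-bound and total mRNA were hybridized to ATH-1 arrays, giving 4 groups of 2 arrays each: polysome-bound mRNA at 38°C, total mRNA at 38°C, polysome-bound mRNA at 22°C and total mRNA at 22°C. Replicates were separate biological samples, as the study's methods state. No group carried a mutation or transgene, and whole seedlings were used, so fewer cells that express a gene and less mRNA per cell cannot be told apart. Whether the plates were lit during the incubation at 38°C is not given in the sources used here, so effects of light and of temperature cannot be told apart.

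The values are log2 hybridization signals. The arrays of polysome-bound mRNA at 38°C were scaled down by the study for the lower polysome content of heated seedlings, and had mean values of 5.30 and 5.25, against 6.15 to 6.18 on the other 6 arrays. Heat effects in polysome-bound mRNA keep this factor, whereas polysome loading, which is polysome-bound minus total mRNA within 1 temperature, was computed with the factor divided out so that 0 lies at the array average. The small heat shock protein genes AT1G53540 and AT1G52560, 2 of the 6 heat genes listed that had a probe set of their own, were called higher at 38°C in both RNA populations. The leaf gene RCA, which encodes rubisco activase, ranged from 12.75 to 14.25 over the 8 arrays, and the root hair expansin gene EXPA7 from 5.24 to 7.11.

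AT3G44450 mRNA was abundant at 22°C and below the median of each array at 38°C. In polysome-bound mRNA it had values of 5.02 and 3.72 at 38°C, against 9.77 and 9.81 at 22°C. In total mRNA it had 5.31 and 4.17 at 38°C, against 8.92 and 9.19 at 22°C. In both populations each array at 38°C lay far below each array at 22°C, with gaps between the nearest arrays of 4.75 in polysome-bound and 3.61 in total mRNA on the log2 scale.

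The group means were 4.37 ± 0.92 in polysome-bound and 4.74 ± 0.81 in total mRNA at 38°C, and 9.79 ± 0.03 in polysome-bound and 9.06 ± 0.19 in total mRNA at 22°C (SD, n = 2 each). The levels at 22°C were thus highest in polysome-bound mRNA, followed by total mRNA, and both were above the levels at 38°C. The order of the populations at 38°C turned with the factor, since the polysome-bound mean was 5.24 ± 0.88 with the factor divided out (SD, n = 2), and their arrays overlapped either way. At 22°C both polysome-bound arrays lay above both total arrays.

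**Figure D1:**
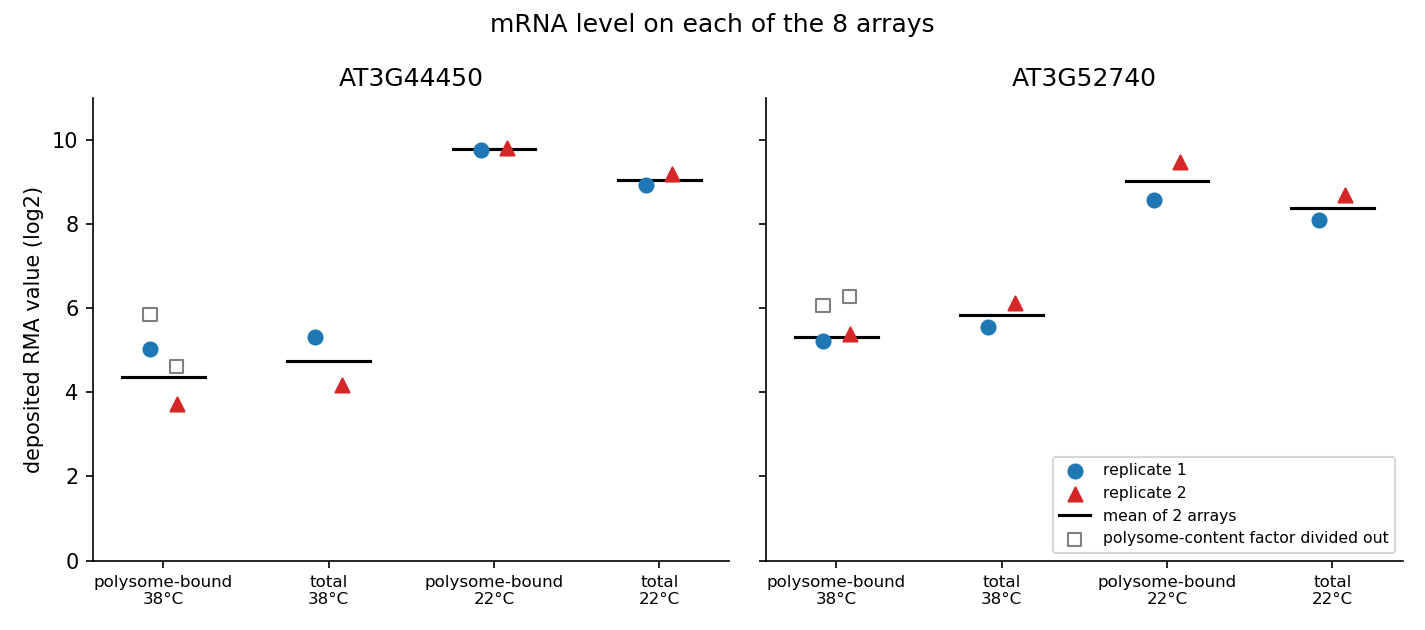
Deposited log2 value of AT3G44450 (left) and of AT3G52740 (right) on each of the 8 arrays, by RNA population and temperature, with circles for replicate 1, triangles for replicate 2, lines for the means of 2 arrays and open squares for polysome-bound mRNA at 38°C with the polysome-content factor divided out. For AT3G44450 no array at 38°C exceeded 5.31 and none at 22°C was under 8.92.

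The log2 heat effect of AT3G44450 was -4.32 in total mRNA (SE 0.48), which is 19.9-fold lower at 38°C, and -5.42 in polysome-bound mRNA (SE 0.48), which is 42.8-fold lower. Over the 4 possible pairs of a 38°C with a 22°C array, it lay between -5.02 and -3.61 in total and between -6.09 and -4.75 in polysome-bound mRNA. These are the values that chose the gene. Of all probe sets tested, 7.06% were called lower at 38°C in total mRNA and 37.1% in polysome-bound mRNA, where a call is an adjusted p under 0.05 in limma and a change of at least 2-fold.

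Just behind AT3G44450 in total mRNA were AT2G28720 with a log2 heat effect of -4.09, the glycosyl hydrolase gene GH9C2 with -3.77, AT3G61820 with -3.51, AT5G41140 with -3.42 and AT5G66985 with -3.34. In polysome-bound mRNA they were AT5G66985 with -4.69, AT2G28720 with -4.49, AT5G45700 with -4.47, GH9C2 with -4.43 and AT3G50270 with -4.37. The step from AT3G44450 to the next gene was wider in polysome-bound than in total mRNA.

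At 38°C the replicates of AT3G44450 differed widely, and in the same direction in both RNA populations. Replicate 1 exceeded replicate 2 by 1.25 in polysome-bound mRNA with the factor divided out and by 1.14 in total mRNA, against median absolute gaps of 0.22 over all probe sets in each group. Gaps at least this wide were found for 1.58% of the probe sets in polysome-bound and 2.13% in total mRNA. At 22°C replicate 1 minus replicate 2 was -0.04 in polysome-bound and -0.27 in total mRNA, so the wide spread was seen in the heated samples. EXPA7, the only 1 of 5 listed root genes measured, differed between the same heated samples in the opposite direction. Its gaps were -1.34 in polysome-bound and -1.13 in total mRNA at 38°C, and -0.65 and -0.82 in those populations at 22°C. The leaf gene RCA was also lower in replicate 1 at 38°C. It had 13.59 against 13.91 in polysome-bound mRNA with the factor divided out, and 13.84 against 14.19 in total mRNA. The part of tissue makeup in the gap of AT3G44450 was not tested. The probe sets called lower in total mRNA had median gaps of the opposite sign to AT3G44450, -0.14 in polysome-bound and -0.09 in total mRNA at 38°C.

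The lower replicates at 38°C were dim. The probe sets below AT3G44450 on the same array made up 48.8% and 33.1% of polysome-bound arrays 1 and 2 at 38°C, and 41.7% of total array 1, with a lower share on total array 2. The 3 trp control probe sets, which target a bacterial transcript, had values of 2.73 to 3.43 at 38°C with the factor divided out, all under the lowest AT3G44450 value in these units of 4.17. How far the array's background compressed the heat effect was not tested.

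With the factor divided out, AT3G44450 had more polysome-bound than total signal in each seedling sample. Polysome loading of AT3G44450 was 0.55 and 0.44 in the 2 samples at 38°C, against 0.85 and 0.62 in the 2 samples at 22°C. All 4 samples were above 0, the array average, and the samples at 38°C were both below those at 22°C. The mean loading was 0.50 at 38°C (SE 0.48, 1.41-fold) and 0.74 at 22°C (SE 0.48, 1.66-fold).

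Neither loading passed the threshold in limma when the 4 groups were fitted without pairing, with adjusted p = 0.715 at 38°C and 0.817 at 22°C. In the fit with the seedling sample as a block, which pairs the polysome-bound and total arrays of 1 sample, the SE was 0.12 at each temperature and the adjusted p was 0.0132 at 38°C and 0.00666 at 22°C. In that fit 11.3% of all probe sets had a higher loading at an adjusted p under 0.05 at 38°C and 3.71% at 22°C, against 0.237% and 0.0% without pairing (826 probe sets at 22°C at an unadjusted p under 0.05). Neither loading reached 2-fold, and the arrays at both temperatures also entered the heat effects that chose the gene.

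Set beside the other probe sets, the loading of AT3G44450 was far out at 22°C and less so at 38°C. A mean loading at least as high was found for 6.55% of the probe sets at 38°C and for 0.386% at 22°C, which are 1493 and 88 probe sets. The loading at 38°C depended on the factor, and was -0.37 with the factor kept. In refits without single arrays it was -0.13 without replicate 1 of polysome-bound mRNA at 38°C. It was -0.07 without replicate 2 of total mRNA at 38°C. These refits break the pairing, so the gap between the heated samples enters them, whereas the loadings within the 2 samples were 0.55 and 0.44.

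The heat effect with the factor divided out was lower in polysome-bound than in total mRNA by a log2 difference of -0.24 (SE 0.67 without pairing and 0.16 with it), which is given without a test. As a ratio of the heat effects on the linear scale, the relative translation efficiency was 0.465 with the factor kept, against a median of 0.551 over all probe sets. With the factor divided out it was 0.849, against a median of 1.01.

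**Figure D2:**
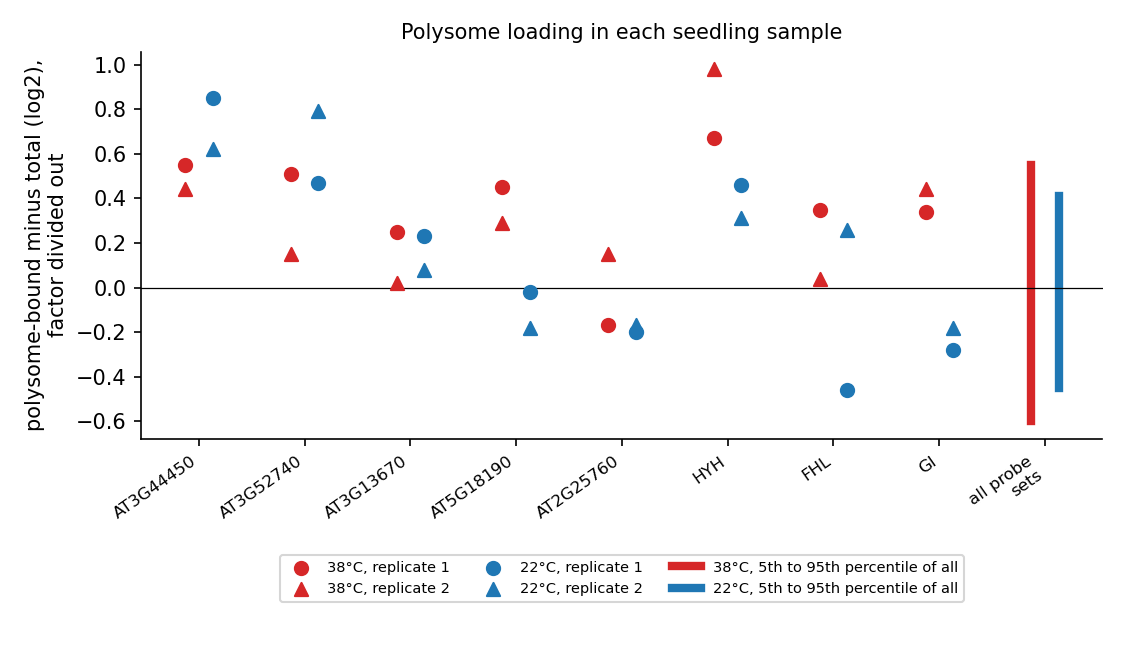
Polysome loading (log2 of polysome-bound minus total mRNA in the same seedling sample, factor divided out) of AT3G44450 and the 7 other measured genes of the light lists, with red for 38°C, blue for 22°C, circles for replicate 1 and triangles for replicate 2. Bars at the right span the 5th to the 95th percentile of mean loadings over all probe sets, -0.60 to 0.55 at 38°C and -0.45 to 0.41 at 22°C, and both AT3G44450 samples at 22°C lie above their bar.

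AT3G52740, listed here as the other gene of the family of cryptochrome inhibitors, fell in both RNA populations. In polysome-bound mRNA it had 5.23 and 5.38 at 38°C, against 8.57 and 9.48 at 22°C. In total mRNA it had 5.56 and 6.12 at 38°C, against 8.10 and 8.69 at 22°C. The arrays at the 2 temperatures did not overlap in either population, and at 38°C its replicates lay closer together than those of AT3G44450.

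The log2 heat effect of AT3G52740 was -3.72 in polysome-bound mRNA (SE 0.35, limma adjusted p = 0.00023, 13.2-fold lower) and -2.56 in total mRNA (SE 0.35, adjusted p = 0.0032, 5.88-fold lower). It was called in all 15 alternatives run for polysome-bound and all 14 run for total mRNA. Its polysome loading was 0.51 and 0.15 in the samples at 38°C, against 0.47 and 0.79 in those at 22°C. With pairing, the adjusted p of its loading was 0.104 at 38°C and 0.0214 at 22°C, and without pairing 0.749 and 0.74.

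Of 86 other genes in 7 lists of light signalling, 7 had a probe set annotated to them alone. In total mRNA 1 of the 7 was called lower, AT3G52740, against 7.06% of all probe sets, and 0 were called higher, against 4.63%. In polysome-bound mRNA 3 of the 7 were called lower, against 37.1% of all probe sets, and 0 higher, against 2.07%. At an unadjusted p under 0.05 in limma, 2 of the 7 were lower in total mRNA, against 21.2% of all probe sets. In that population 1 was higher, against 17.0%. In polysome-bound mRNA 5 were lower at that p, against 80.6%, and 0 higher, against 3.09%. The median heat effect of the 7 was -0.26 in total mRNA, against 0.03 over all probe sets, and -1.13 in polysome-bound mRNA, against -0.85. The 3 cryptochrome genes listed had no probe set annotated to 1 gene here and were not analysed.

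**Figure D3:**
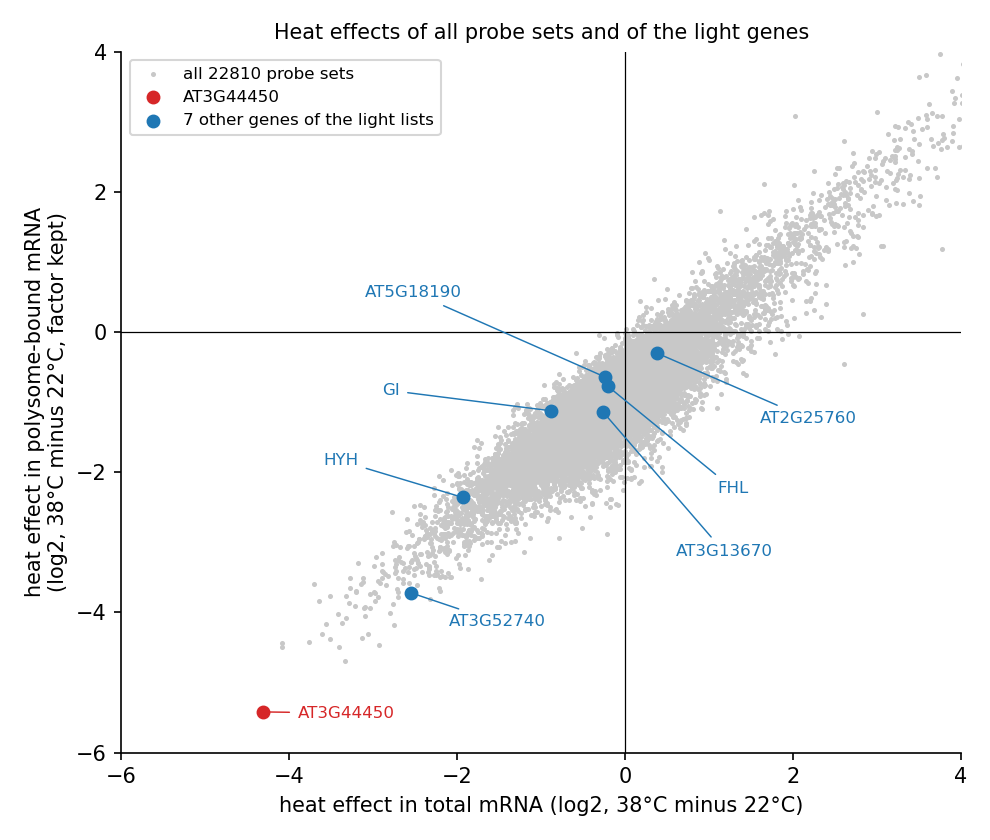
Heat effect in polysome-bound mRNA (log2, factor kept) against heat effect in total mRNA (log2) for all probe sets in grey, AT3G44450 in red and the 7 other measured light genes in blue. The axes end at 4, and 107 probe sets beyond that are not drawn. AT3G44450 lies at -4.32 and -5.42, below and to the left of all other probe sets, with AT3G52740 nearest to it among the light genes.

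Of the genes listed as kinases of cryptochromes, AT3G13670 was called lower in polysome-bound mRNA and AT5G18190 and AT2G25760 were not called in either population. AT3G13670 had 7.67 and 7.48 in polysome-bound mRNA at 38°C, against 8.92 and 8.52 at 22°C, a log2 difference of -1.15 (SE 0.18, limma adjusted p = 0.00127). In total mRNA it had 8.26 and 8.35 at 38°C, against 8.69 and 8.44 at 22°C, a log2 difference of -0.26 (adjusted p = 0.322). The call in polysome-bound mRNA was lost with the factor divided out, when the difference was -0.28, without replicate 1 at 22°C, when it was -0.95, and under 2 other array scalings, and was made in 11 of the 15 alternatives. The differences of AT5G18190 and AT2G25760 in polysome-bound mRNA were -0.64 and -0.31, and in total mRNA -0.25 and 0.39.

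HYH, a bZIP transcription factor homologous to HY5 that promotes light responses, was called lower in polysome-bound mRNA. It had 3.91 and 4.57 there at 38°C, against 5.76 and 7.44 at 22°C, a log2 difference of -2.36 (SE 0.71, limma adjusted p = 0.0172). In total mRNA it had 4.08 and 4.48 at 38°C, against 5.30 and 7.13 at 22°C, a difference of -1.94 (SE 0.71, adjusted p = 0.091). The groups did not overlap, but the replicates at 22°C lay far apart, and the call in polysome-bound mRNA was lost without replicate 2 at 22°C (-1.52, adjusted p = 0.0998), without replicate 1 at 38°C (-2.03, adjusted p = 0.0856) and with the factor divided out (-1.49, adjusted p = 0.188). In total mRNA the difference was called without replicate 1 at 22°C (-2.85, adjusted p = 0.0428) and with the replicate number as a block (SE 0.36, adjusted p = 0.00777).

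FHL, which helps bring phytochrome A into the nucleus, was dim on all arrays. Its values were 3.67 and 3.08 in polysome-bound mRNA at 38°C, against 3.96 and 4.34 at 22°C, a log2 difference of -0.78 (adjusted p = 0.0216 in limma) that did not reach 2-fold, but was -1.07 and called without replicate 1 at 38°C. GI, the clock and photoperiod gene GIGANTEA, had 7.48 and 6.85 in polysome-bound mRNA at 38°C, against 8.91 and 7.67 at 22°C, a log2 difference of -1.13 (adjusted p = 0.0977 in limma). Its total mRNA had 7.98 and 7.30 at 38°C, against 9.19 and 7.85 at 22°C, a difference of -0.88 (adjusted p = 0.287). For GI replicate 1 was above replicate 2 in each of the 4 groups. With the replicate number as a block, GI was called lower in polysome-bound mRNA (SE 0.22, adjusted p = 0.00261), as it was without replicate 2 at 22°C (-1.75, adjusted p = 0.0398). In the fits with this block 2 of the 7 light genes were called lower in total and 4 in polysome-bound mRNA, against 8.1% and 38.1% of all probe sets.

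The genes most like AT3G44450 were sought over the 8 arrays, among 13512 other probe sets of 1 gene, by the root mean square distance between profiles centred on their means. The 8 nearest were AT5G66985 at a distance of 0.65, AT2G28720 at 0.71, AT3G50270 at 0.72, AT3G61820 at 0.74, GH9C2 at 0.78, AT5G45700 at 0.79, and AT5G01790 and AT3G01660 at 0.83 each. Only GH9C2 among them has a name in the annotation used. Their Pearson's r with AT3G44450 over the 8 arrays ran from 0.951 for GH9C2 to 0.990 for AT5G01790, which describes points that share 2 temperatures and paired samples.

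The neighbours all had closer replicates than AT3G44450 at 38°C, whereas at 22°C some had closer and some wider replicates. As the choice of AT3G44450 fixes, their heat effects were smaller. Their log2 heat effects lay between -4.09 and -2.80 in total and between -4.69 and -3.77 in polysome-bound mRNA. Replicate 1 minus replicate 2 at 38°C lay between -0.74 and 0.69 in polysome-bound and between -0.29 and 0.48 in total mRNA, so that none had the gaps of 1.25 and 1.14 of AT3G44450. At 22°C they lay between -0.37 and 0.48 in polysome-bound and between -0.32 and 0.33 in total mRNA, against -0.04 and -0.27 for AT3G44450. Their loading ran from -0.55 to 0.99 at 38°C and from -0.38 to 0.55 at 22°C, where AT3G44450 with 0.74 was above all 8.

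**Figure D4:**
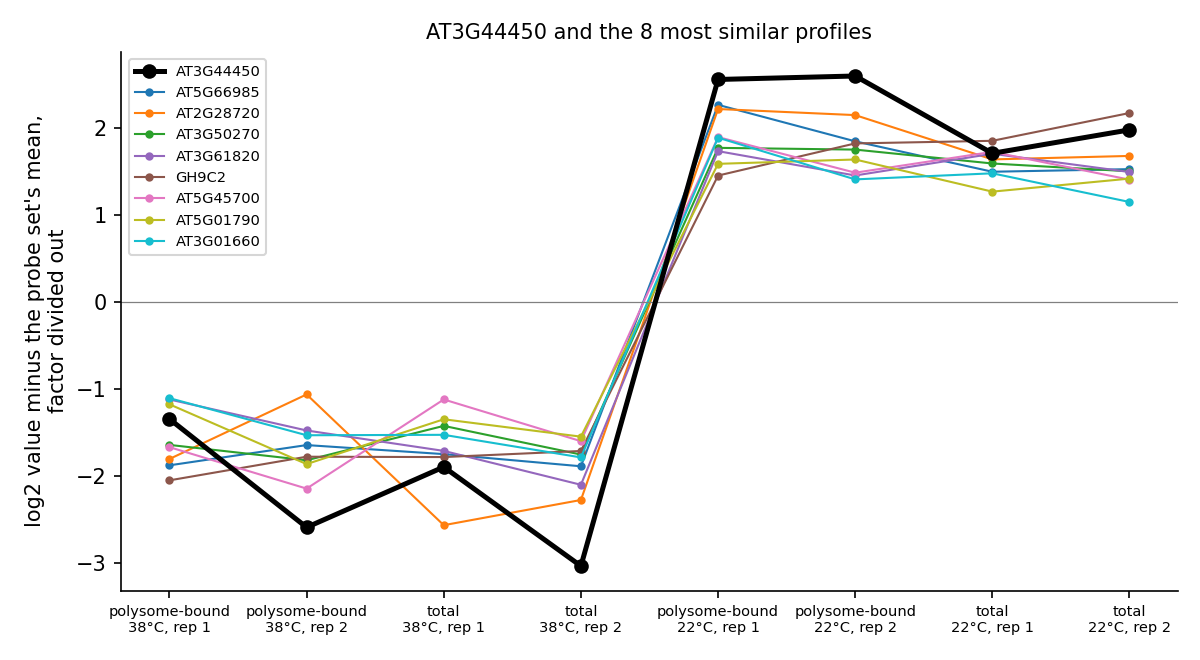
Profiles over the 8 arrays of AT3G44450 (black) and the 8 genes at the smallest distance (colours), as log2 value minus the mean of the probe set with the factor divided out. Lines only join the arrays of 1 gene. All 9 profiles are below 0 at 38°C and above 0 at 22°C, and AT3G44450 is the lowest on replicate 2 of both populations at 38°C.

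When genes were ranked by Pearson's r instead, among 1078 probe sets with a range of at least 2 on the log2 scale, the first was AT4G11175 with r = 0.998 and the eighth had 0.986. Of the 8 highest, 2 were also among the 8 at the smallest distance, AT5G01790 and AT3G01660. The names of the nearest genes thus depended on whether the size of the change was counted.

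AT3G44450 lies on chromosome 3 by the RefSeq table of assembly TAIR10.1. The 5 nearest genes on each side with a probe set annotated to them alone were examined. Of these 10, 0 were called in either direction in either population. The shares over all probe sets were 7.06% lower and 4.63% higher in total mRNA, and 37.1% lower and 2.07% higher in polysome-bound mRNA. Their means at 22°C were under the highest lower quartile of an array for 7 of the 10, and for 3 no higher than the highest trp control at 22°C, so that a fall could not be seen in those. At an unadjusted p under 0.05 in limma, 1 of the 10 was higher in total mRNA, against 17.0% of all probe sets. In that population 0 were lower, against 21.2%. In polysome-bound mRNA 9 were lower at that p, against 80.6%, and 0 higher, against 3.09%. Log2 heat effects of the 10 lay between -0.35 and 0.45 in total mRNA. In polysome-bound mRNA they lay between -0.99 and -0.42, where the median of all probe sets was -0.85.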

How the data were processed

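Polysome-bound and total mRNA of Arabidopsis seedlings was measured on 8 ATH-1 arrays, 2 per group, which limits the precision of each value. The deposited values are log2 signals after RMA. The submitters' processing notes name RMA and affy, and give no version of either. The authors also scaled polysome-bound values at 38°C by a polysome-content factor per replicate. This factor, known from the methods, stayed in the heat effects of polysome-bound mRNA and was removed for loading and for the difference between heat effects.

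Contrasts came from limma 3.58.1 (R 4.3.3), using lmFit and eBayes with a mean for each group and 4 residual degrees of freedom. Benjamini-Hochberg adjustment ran over 22810 probe sets, and the code was checked on simulated data. Calls required at least 2-fold and an adjusted p under 0.05. By the methods, both RNA populations were prepared from the same seedlings. Array deviations from the group mean correlated between the populations (r = 0.76 at 38°C and 0.79 at 22°C), so loading was fitted with the sample as a block too, leaving 2 residual degrees of freedom.

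Gene names came from the platform annotation and a RefSeq table of assembly TAIR10.1, which matched 13436 of 13513 probe sets of 1 gene. A further 503 probe sets had several genes and 8794 had none listed. For a gene with several probe sets, that with the highest mean was used. Named genes are AT3G44450, its 8 pattern neighbours, the 5 next falls per heat contrast, AT3G52740, marker genes and the called genes of the light lists. The other measured light genes were named after their values were seen. AT3G44450 and the lists were chosen with earlier results of these data known. Alternatives were array scaling, the factor, the arrays fitted, a filter on dim probe sets, pairing and leaving out single arrays. Python 3.11.15 with numpy 2.4.6 and pandas 2.3.3 made the tables, and matplotlib 3.10.9 drew the plots.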

Additional observations from a re-analysis of the deposited data

Results flagged for a closer look

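For 4 of the named genes, polysome loading had one sign in both samples at 38°C and the other sign in both samples at 22°C, or heat effects had opposite signs in polysome-bound and total mRNA, over every pair of arrays and with the factor divided out. The difference of heat effects, polysome-bound minus total mRNA with the factor divided out, was 0.47 for AT5G18190, 0.62 for GI, -0.36 for AT3G50270 and -0.67 for AT5G45700 on the log2 scale. In limma none passed the threshold, with adjusted p of 0.86, 0.988, 0.916 and 0.898 without pairing and 0.142, 0.0735, 0.238 and 0.0602 with the seedling sample as a block. Mean loading was 0.37 at 38°C and -0.10 at 22°C for AT5G18190, and 0.39 at 38°C and -0.23 at 22°C for GI. It was -0.14 at 38°C and 0.22 at 22°C for AT3G50270, and -0.55 at 38°C and 0.13 at 22°C for AT5G45700. AT3G44450 itself had positive loading in all 4 samples. The share of all probe sets with such signs is not given here, so the count of 4 cannot be read as particular to these genes. Some genes beside the locus, such as AT3G44400 and AT3G44510, also had positive loading in both samples at 38°C and negative loading in both at 22°C. The signs at 38°C rest on dividing out the polysome-content factor.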

How the results depend on the processing

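The heat effects of AT3G44450 stayed negative in all alternatives run. Scaling to the poly-A spike-in controls, chosen after seeing the data, gave -5.00 in total mRNA, 0.62 for the difference between heat effects, 1.36 for loading at 38°C (adjusted p = 0.0116) and 3 light genes called lower in total mRNA. The medians of all probe sets moved with it, to 0.86 for the difference and 0.86 for loading at 38°C. It moved the median heat effect of all probe sets in total mRNA to -0.65, and centring on medians moved it to 0.25, against 0.03 as deposited. With the factor divided out, the heat effect in polysome-bound mRNA was -4.55 and 1 light gene was called lower there, and with the factor kept the loading at 38°C was -0.37 (adjusted p = 0.484), where the factor by construction shifts each such value. With the replicate block, loading was 0.74 at 22°C (adjusted p = 0.00666) and 0.50 at 38°C (adjusted p = 0.0132), and 2 light genes were called lower in total and 4 in polysome-bound mRNA. For heat effects the block was the replicate number, which the methods use across temperatures for the factor (deviations correlated with r = 0.52 in total and 0.44 in polysome-bound mRNA). Besides the calls of HYH in total and GI in polysome-bound mRNA, it changed no call of a light gene. Uncalled differences changed sign with the factor divided out for AT5G18190 (0.23), FHL (0.09) and AT2G25760 (0.56) in polysome-bound mRNA, with spike-in scaling for AT2G25760 (-0.30) and with median centring for FHL (0.01) in total mRNA. Leaving out 1 array at a time gave -6.07 to -4.77 for the heat effect in polysome-bound mRNA, -4.89 to -3.75 in total mRNA, -0.86 to 0.39 for their difference, -0.13 to 1.12 for loading at 38°C (-0.07 without replicate 2 of total mRNA), 0.60 to 0.87 for loading at 22°C, and 1 to 2 light genes lower in total and 2 to 3 in polysome-bound mRNA. These refits break the pairing of samples. Shares of all probe sets called with spike-in scaling, with the factor divided out or with 1 array left out are not given. The counts of light genes under those settings are thus not a result about these genes. The gap between replicates at 38°C and the dimmer signal of replicate 2 limit how exactly the low values of AT3G44450 are known.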
